A study of Mus musculus with 3 samples.

Results

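The circadian clock genes *Dbp*, *Tef*, *Hlf*, *Nr1d1*, *Nr1d2*, *Per1*, *Per2*, *Per3*, *Arntl* and *Cry1* were followed in mouse CPE, the epithelium of the choroid plexus, which makes the fluid of the brain ventricles. Every probe that the array design names for 1 of these 10 genes was taken, which gave 17 of the 41174 probes and 10 of the 27845 names on the array. Each probe was printed as 1 spot, and 0 of these spots were marked as outliers or saturated. *Tef* had 4 probes, *Nr1d1* had 3, *Per2* and *Cry1* had 2 each, and the other 6 genes had 1 each.

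The CPE came from 3 healthy adult C57BL/6 mice, which carried no further allele or treatment and were kept on a cycle of light and darkness. The cells were laser dissected from frozen sections of the lateral ventricles, and their RNA was amplified, labelled with Cy5 and hybridised to 1 array per mouse. All 3 arrays carried the same reference in Cy3, RNA of retinal pigment epithelium (RPE) and choroid from the eye of wild type C57BL/6 mice. The dyes were not swapped, so dye and tissue cannot be told apart, and the reference was a single RNA whose own spread is not in the errors. The hour of the day at which the CPE or the reference was collected is not given in the sources used here.

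The mammalian clock is a feedback loop of transcription. ARNTL (also called BMAL1) pairs with CLOCK and binds E-boxes in the genes of the PER and CRY proteins, which return to the nucleus and repress that pair. ARNTL and CLOCK also drive *Nr1d1* and *Nr1d2*, which encode the REV-ERB repressors that bind RORE sites and shut off *Arntl*, and the genes of the PAR bZIP factors DBP, TEF and HLF, which bind D-boxes in output genes. In most tissues *Arntl* therefore peaks at another time of day than *Dbp*, *Nr1d1* and the *Per* genes, and the choroid plexus is known to hold a clock of its own.

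The promoters below show where the letters of these sites occur in genes that the results turn on. *Dbp*, *Tef*, *Nr1d2* and *Per1* had the brightest ranks in CPE, *Arntl* was 1 of the genes with a called probe, and *Per3* held D-box letters. They are RefSeq promoters of build GRCm38.p6, from 250 bases before to 50 after the start of transcription, in lower case with matches to any of the motifs searched in capitals. The *Dbp* window is chr7:45704997-45705296 on the plus strand, *Tef* chr15:81802423-81802722 on the plus strand, *Nr1d2* chr14:18239057-18239356 on the minus strand, *Per1* chr11:69098699-69098998 on the plus strand, *Per3* chr4:151044616-151044915 on the minus strand and *Arntl* chr7:113207261-113207560 on the plus strand.
Dbp: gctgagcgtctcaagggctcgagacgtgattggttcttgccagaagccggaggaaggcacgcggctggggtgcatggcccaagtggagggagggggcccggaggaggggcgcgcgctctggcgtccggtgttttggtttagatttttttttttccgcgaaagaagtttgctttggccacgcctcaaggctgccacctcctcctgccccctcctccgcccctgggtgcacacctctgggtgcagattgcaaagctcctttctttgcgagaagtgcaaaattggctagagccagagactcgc
Tef: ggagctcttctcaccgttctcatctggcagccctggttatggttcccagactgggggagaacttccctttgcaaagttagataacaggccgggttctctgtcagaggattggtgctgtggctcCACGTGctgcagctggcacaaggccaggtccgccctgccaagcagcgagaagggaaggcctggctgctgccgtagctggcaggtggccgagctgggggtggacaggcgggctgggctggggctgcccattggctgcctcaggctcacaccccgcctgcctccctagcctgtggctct
Nr1d2: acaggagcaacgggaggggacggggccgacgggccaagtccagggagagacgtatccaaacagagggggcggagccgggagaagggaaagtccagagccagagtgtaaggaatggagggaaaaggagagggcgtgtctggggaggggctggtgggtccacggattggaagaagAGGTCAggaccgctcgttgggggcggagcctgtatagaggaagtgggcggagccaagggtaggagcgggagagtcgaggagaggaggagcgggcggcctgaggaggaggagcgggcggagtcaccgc
Per1: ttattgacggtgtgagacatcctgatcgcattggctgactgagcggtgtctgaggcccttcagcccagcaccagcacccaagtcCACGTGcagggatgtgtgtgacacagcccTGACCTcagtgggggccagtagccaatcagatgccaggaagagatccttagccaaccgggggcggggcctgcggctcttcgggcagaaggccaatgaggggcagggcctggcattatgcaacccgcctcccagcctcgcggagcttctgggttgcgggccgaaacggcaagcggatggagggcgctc
Per3: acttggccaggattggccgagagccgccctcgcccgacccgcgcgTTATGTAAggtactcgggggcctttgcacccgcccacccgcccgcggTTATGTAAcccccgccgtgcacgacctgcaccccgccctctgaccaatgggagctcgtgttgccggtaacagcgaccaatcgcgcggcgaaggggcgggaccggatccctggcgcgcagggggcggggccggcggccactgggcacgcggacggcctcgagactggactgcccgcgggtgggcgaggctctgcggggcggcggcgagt
Arntl: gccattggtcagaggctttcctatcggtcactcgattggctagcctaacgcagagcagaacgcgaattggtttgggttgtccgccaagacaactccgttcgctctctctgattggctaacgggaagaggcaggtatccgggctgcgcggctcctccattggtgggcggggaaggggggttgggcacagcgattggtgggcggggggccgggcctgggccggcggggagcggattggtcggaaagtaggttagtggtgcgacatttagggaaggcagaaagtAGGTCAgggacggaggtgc

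A total of 9 of the 10 genes matched the promoter table, with 12 start sites, and both strands were searched. The E-box CACGTG was found at *Tef*, *Per1* and *Cry1*, which are 3 of the 9 genes. Counted by promoter it was in 4 of 12, against 7.15% of all 32851 promoters of this length. At *Tef* it lay before both start sites, with its first base at −127 and −138 from the start. At *Per1* it lay at −166 from 1 of 2 start sites. The D-box, searched as TTATGTAA and TTACGTAA, was found at *Per3* alone, in 2 copies at −205 and −158, against 1.06% of all promoters. The core of the RORE, AGGTCA, was found at *Nr1d2*, *Per1* and *Arntl*, in 3 of the 12 promoters, against 16.3% of all promoters. At *Arntl* its first base lay at position 32 after 1 of 2 start sites, the one printed above, and the other window held none. At *Per1* it lay at −137 from 1 of 2 start sites. The cyclic AMP response element TGACGTCA was found at *Hlf*, at −9, against 1.79% of all promoters. The windows of *Dbp* and *Nr1d1* held none of these letters, and the searched motifs did not overlap each other in the windows shown. A match is a run of letters and was not tested as a binding site.

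The arrays differed in how many probes stood well above background in the CPE channel, 24082 for mouse 1, 18933 for mouse 2 and 35234 for mouse 3, and the background there was 363 for mouse 3 against 81.2 and 82.6 for the others. The ratios of mouse 3 were nearer to 0, with a slope of 0.70 on the mean of the other mice over all tested probes. The CPE label was checked against its markers, and all 11 of the CPE markers on the array were above the 90th percentile, 10 of them called higher in CPE. Markers of the reference tissue were lower in CPE, 9 of 10 for RPE and melanocytes and 8 of 8 for photoreceptors, cells with clocks of their own. The photoreceptor markers, at log2 ratios from −6.37 to −3.36, were still well above background in CPE on every array. Lower in CPE were also 3 of 4 neuron markers, 4 of 4 stroma markers and 3 of 3 red blood cell markers. In the CPE channel itself the stroma markers were bright, at percentiles 84.4 to 98.3, with 3 of 4 above the 90th. Of the red blood cell markers 2 of 3 were above it. The part of these other cells in the clock gene levels and ratios was not tested.

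The first question was how brightly the clock genes are detected in CPE. For each mouse, probes were ranked by the log2 of the mean Cy5 signal after normalization between arrays, and the mean over mice placed a probe in the high class above the 90th percentile, the moderate class down to the 50th, the low class down to the 10th or the very low class. Of the 17 probes, 4 were high, 7 moderate, 6 low and 0 very low. No background was subtracted for these ranks or for the levels below, and the CPE background of mouse 3 was the brightest. The levels of dim probes in mouse 3 therefore include much of that background. Background correction before the normalization changed the class of 0 of the 17 probes. Ranks say where a probe lies on the array and not which transcript is more abundant, since probes differ in how well they hybridise. Ranked among probes well above background in CPE alone, *Dbp* was the only high one.

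**Figure D1:**
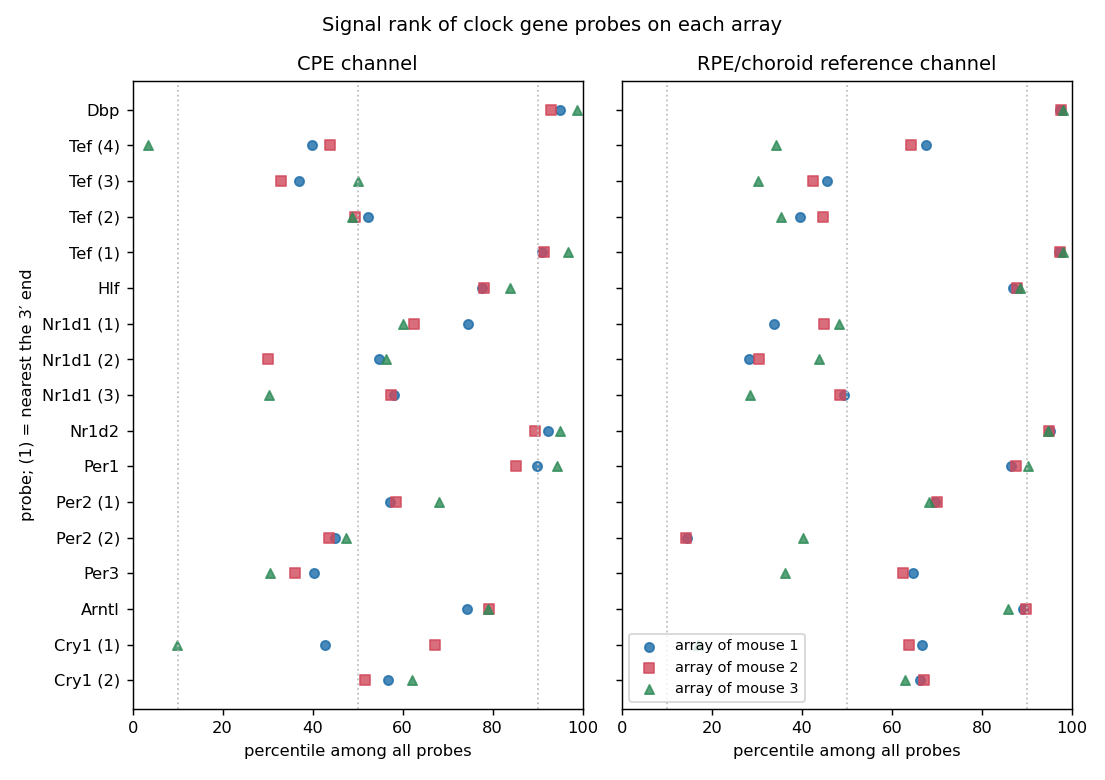
Percentile of each clock gene probe among all probes of the same array, for the CPE channel (left) and the RPE/choroid reference channel (right), with 1 symbol per array and dotted lines at the class limits of 10, 50 and 90. Probes of 1 gene are numbered from the 3′ end. *Dbp*, *Nr1d2*, *Per1* and the 3′ probe of *Tef* lie near or above the 90th percentile in CPE, and their symbols are more spread out there than in the reference.

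Of the PAR bZIP genes, *Dbp* and the 3′ probe of *Tef* were high in CPE. The *Dbp* probe (chromosome 7, 45577937 to 45577996, mm8) had log2 levels of 12.02, 11.22 and 13.57 in the CPE of mice 1, 2 and 3. Its levels in the reference channel of the same arrays were 11.65, 12.07 and 12.09. Its CPE level was 12.27 ± 1.20 (SD, n = 3), at percentile 96.4, with the mice at 95.04, 93.1 and 98.7. Mouse 3 was the bright sample and mouse 2 the dim one, with a distance of 5.10-fold between them, while the reference had an SD of 0.25. The 3′ probe of *Tef* (chromosome 15, 81653753 to 81653812) had CPE levels of 11.14, 10.91 and 12.44 and reference levels of 11.57, 11.99 and 12.02, and lay at percentile 93.8 in CPE. Here too mouse 3 was the highest. The *Hlf* probe (chromosome 11, 90154754 to 90154813) was moderate at percentile 80.6, with CPE levels of 9.60, 9.24 and 10.16 and reference levels of 9.72, 10.15 and 9.83.

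Of the REV-ERB genes, *Nr1d2* was high and *Nr1d1* moderate. The *Nr1d2* probe (chromosome 14, 16997805 to 16997864) lay at percentile 92.7 and had CPE levels of 11.38, 10.58 and 11.86, with reference levels of 10.96, 11.21 and 10.93. Mouse 2 fell below the 90th percentile, at 89.5. The 3′ probe of *Nr1d1* (chromosome 11, 98585302 to 98585804, a span of 503 bp of genome for 1 probe) lay at percentile 68.0 and had CPE levels of 9.33, 7.95 and 8.57 and reference levels of 7.71, 8.002 and 7.30. For this probe the CPE of mouse 1 was the highest of the 3, unlike *Nr1d2*.

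Among the repressors of the PER family, *Per1* alone was high. Its probe (chromosome 11, 68925571 to 68925630) had CPE levels of 10.97, 9.997 and 11.67 and reference levels of 9.65, 10.13 and 10.07. It lay at percentile 90.5 in the mean and lay at 89.9, 85.3 and 94.3 in mice 1, 2 and 3, so that mouse 3 carried it into the high class, and it was moderate when mouse 3 was left out. The 3′ probe of *Per2* (chromosome 1, 93246875 to 93246934) was moderate at percentile 61.8 with levels of 7.97, 7.72 and 9.02. *Per3* (chromosome 4, 149848947 to 149849006) was low at percentile 33.3, and its probe was well above background in CPE in mouse 3 alone but in the reference on all 3 arrays.

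The activator and the cryptochrome were moderate. The *Arntl* probe (chromosome 7, 113104645 to 113104704) had CPE levels of 9.31, 9.36 and 9.75, an SD of 0.24, and lay at percentile 78.6. Its reference levels were 9.96, 10.38 and 9.501. The brighter *Cry1* probe (chromosome 10, 84573549 to 84573608), which encodes a partner of the PER proteins, had CPE levels of 7.93, 7.44 and 8.68 and lay at percentile 56.9. In mouse 2 it was not well above background.

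The second comparison asked which clock genes differed between CPE and the RPE and choroid reference. Log2 ratios (CPE over reference) were obtained after background correction and loess normalization within each array, and limma tested its mean against 0 over the 25844 probes that were well above background in at least 1 channel on all arrays. Calls needed both a Benjamini-Hochberg adjusted p under 0.05 and a ratio of 2-fold or more, which 17.3% of all tested probes reached, 10.2% lower and 7.09% higher in CPE. Of the 17 clock probes 15 were tested, and 2 of them were called, both lower in CPE: *Arntl* and the 3′ probe of *Tef*. A total of 2 of 15 is no larger share than the 17.3% of all probes. In bulk RNA, fewer cells of a type and less RNA per cell cannot be told apart.

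**Figure D2:**
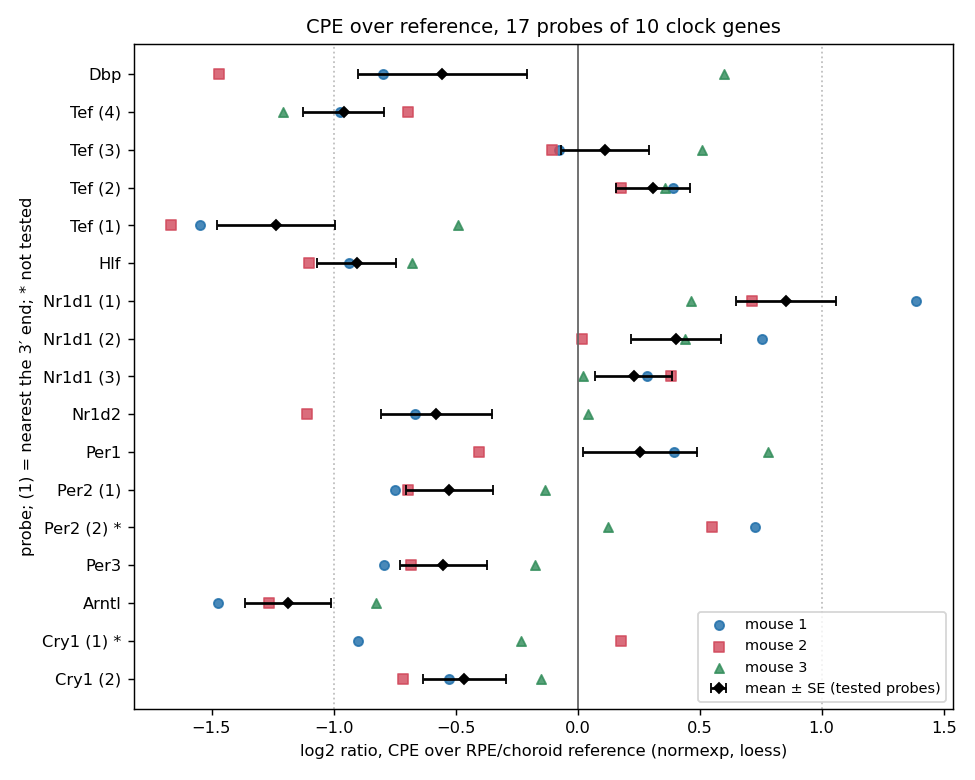
Log2 ratio of CPE over the RPE/choroid reference for the 17 probes of the 10 clock genes, with 1 symbol per mouse and, for the 15 tested probes, the mean with its limma standard error. Dotted lines mark a 2-fold change. *Arntl* and the 3′ probe of *Tef*, numbered 1, are the only ones called, and for *Dbp*, *Nr1d2* and *Per1* the mice lie on both sides of 0.

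*Arntl* was lower in CPE in every mouse, with log2 ratios of −1.47, −1.26 and −0.83. The mean was −1.19 (SE 0.18, limma adjusted p 0.00182), a 2.28-fold difference. The 3′ probe of *Tef* had ratios of −1.55, −1.67 and −0.49 and a mean of −1.24 (SE 0.24, limma adjusted p 0.00606), a 2.35-fold difference. Mouse 3 was nearest to 0 for both genes. Both were called with any 1 mouse left out. Neither was called when each array was centred on its median in place of loess, where the ratio was −0.65 for *Arntl* (limma adjusted p 0.118) and −0.52 for *Tef* (limma adjusted p 0.213).

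At any fold, 39.2% of all tested probes had an adjusted p under 0.05. Of the clock probes 6 of 15 did, the called probes of *Arntl* and *Tef* among them. *Hlf* had ratios of −0.94, −1.10 and −0.68, a mean of −0.91 (SE 0.16, limma adjusted p 0.00389), and so lay just inside 2-fold. *Per3* had ratios of −0.79, −0.68 and −0.17 with a mean of −0.55 (SE 0.18, limma adjusted p 0.042). The *Tef* probe farthest from the 3′ end had a mean of −0.96 (limma adjusted p 0.00351). The *Per3* probe and this *Tef* probe were well above background in CPE in 1 mouse each, and passed the filter only through the reference. Both are among the 6, and their ratios rest on CPE signals near the background. The 3′ probe of *Nr1d1* was the exception in direction, higher in CPE in every mouse at 1.39, 0.71 and 0.46, with a mean of 0.85 (SE 0.20, limma adjusted p 0.0138), or 1.81-fold. In 11 of the 15 tested clock probes the 3 mice shared a direction, lower for 7 and higher for 4, as they did in 65.4% of all tested probes. The median ratio of the clock probes was −0.53 and that of all tested probes −0.040. With each array centred on its median in place of loess, these were −0.077 and 0.092.

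The remaining clock genes were not called, which does not show equal levels. *Dbp* had a mean ratio of −0.56 (SE 0.35, limma adjusted p 0.244), *Nr1d2* one of −0.58 (SE 0.23, limma adjusted p 0.0802) and *Per1* one of 0.26 (SE 0.23, limma adjusted p 0.422). For *Per2* the tested probe had −0.53 (SE 0.18, limma adjusted p 0.0513), and for *Cry1* −0.46 (SE 0.17, limma adjusted p 0.0652). Without mouse 3, 5 of 16 tested clock probes were called, beside 19.0% of all tested probes. *Dbp* was then lower in CPE at −1.13 (limma adjusted p 0.00724), whereas median centring of all 3 arrays gave it 0.18. *Hlf* was lower at −1.02 and the 3′ probe of *Nr1d1* was higher at 1.05.

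The labels give no hour of collection, and the third comparison therefore asked how far the clock genes varied between the mice. The SD of the *Dbp* ratio over the 3 mice was 1.05, at percentile 99.2 of all tested probes. Its ratios were −0.80, −1.47 and 0.60, a distance of 4.19-fold between mice 2 and 3. The 3′ probe of *Tef* had an SD of 0.65 (percentile 93.4), *Per1* 0.60 (91.7) and *Nr1d2* 0.58 (90.6), and these were the 4 clock probes of the high class. The ratios of *Per1* were 0.39, −0.40 and 0.78 and those of *Nr1d2* −0.67, −1.11 and 0.04. In all 4 probes mouse 2 was the lowest and mouse 3 the highest. *Arntl* and *Hlf* varied less, with SDs of 0.33 and 0.21, at percentiles 63.6 and 37.3. Over the tested clock probes the median SD was 0.34, against 0.26 for all tested probes, and 11 of 15 lay above the latter. This excess was not present without mouse 3, where the median SD was 0.148 against 0.177 for all tested probes, 6 of 15 lay above and *Dbp* had 0.47 (percentile 88.5). With the log ratio given by the scanner, 13 of 15 lay above the median of all tested probes. The 4 probes of the high class stood out less there. *Dbp* lay at percentile 90.9, the 3′ probe of *Tef* at 70.9, *Per1* at 68.5 and *Nr1d2* at 64.7.

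**Figure D3:**
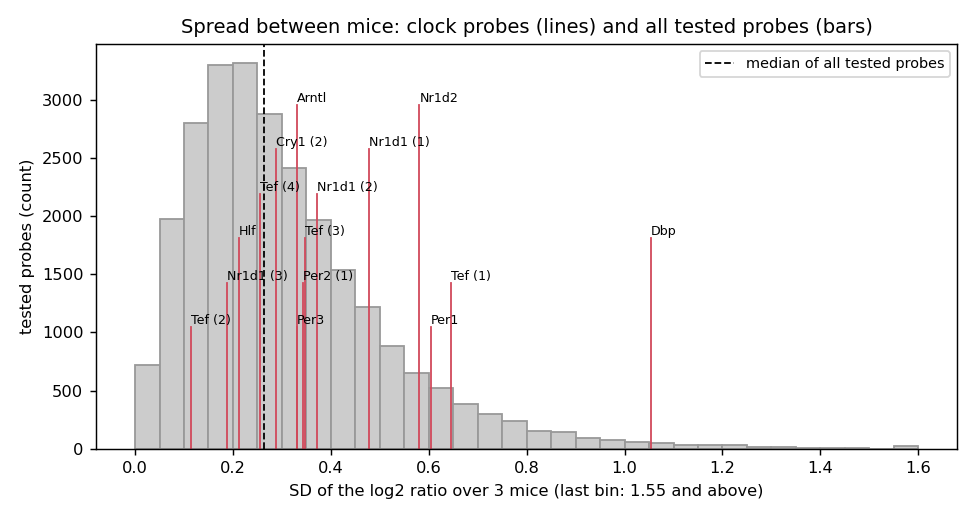
Histogram of the SD of the log2 ratio over 3 mice for all tested probes (bars), with the 15 tested clock probes as lines (height has no meaning) and the median of all tested probes as a dashed line. *Dbp* stands at 1.05, and *Tef* 1, *Per1* and *Nr1d2* between 0.58 and 0.65, to the right of most probes.

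Mouse 3 had the highest ratio for 10 of the 15 tested clock probes and for 25.4% of all tested probes, and mouse 2 had the lowest for 9 of 15 and for 25.8% of all. The probes of *Nr1d1* did not share this order, and the 3′ probe was highest in mouse 1. The ratios of mouse 3 were nearer to 0 over all tested probes, with the slope of 0.70, and where ratios are negative the one nearer to 0 is the highest. The mean ratio was negative for 9 of the 15 tested clock probes, while the 25.4% covers probes of both signs. The part of this in the place of mouse 3 was not tested. The place of mouse 3 depended on the normalization. With each array centred on its median, *Dbp* had ratios of 0.47, −0.44 and 0.52, *Per1* of 1.44, 0.29 and 0.73, and *Nr1d2* of 0.52, −0.22 and −0.02. Mouse 2 was again the lowest for these 3 genes, while mouse 1 and no longer mouse 3 was the highest for *Per1* and *Nr1d2*. The SD of *Dbp* was then 0.54, at percentile 54.0 of all tested probes, and only 4 of 15 clock probes exceeded the median SD. With median centring mouse 2 was lowest for 10 of 15 clock probes and 23.4% of all, and mouse 3 highest for 7 of 15 and 23.3% of all. The array of mouse 3 is the one with the bright background, and that of mouse 2 had the fewest probes above background and was scanned on another day than the other arrays. The part of these differences in the spread was not tested.

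**Figure D4:**
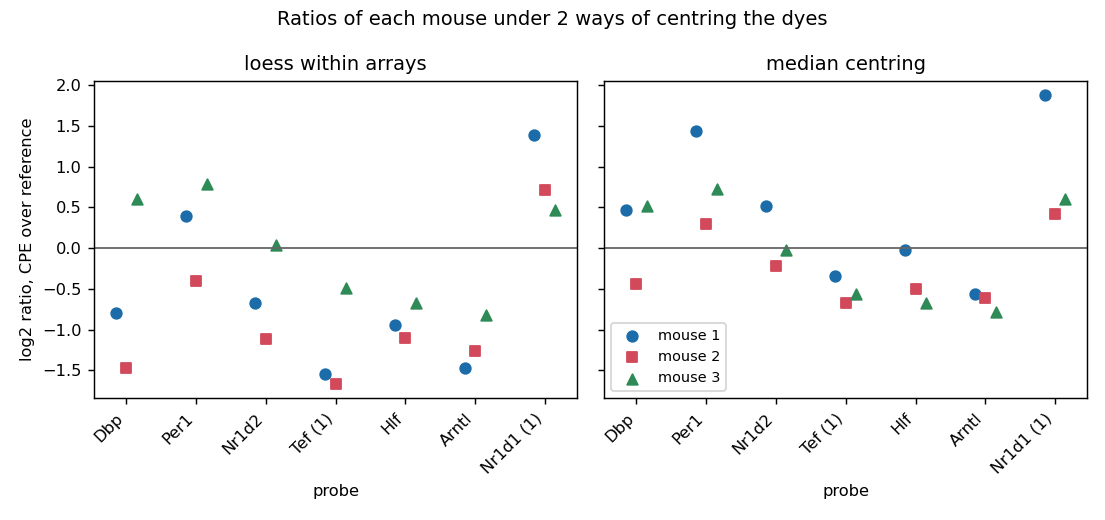
Log2 ratios of CPE over reference of 7 clock gene probes in each mouse, after loess normalization (left) and after centring each array on its median (right). Mouse 2 is the lowest for *Dbp*, *Per1* and *Nr1d2* in both panels, whereas the order of mice 1 and 3 turns for *Per1* and *Nr1d2*.

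Ranks by the signal before normalization, taken within 1 array, need no balance between dyes. In the CPE channel of mice 1, 2 and 3 *Dbp* lay at percentiles 95.1, 93.3 and 98.7. *Per1* lay at 89.9, 85.6 and 94.5 and *Nr1d2* at 92.4, 89.9 and 94.99. The reference channel, with the same RNA on every array, gave 97.4, 97.6 and 97.9999 for *Dbp*. It gave 86.8, 87.6 and 89.4 for *Per1* and 95.2, 94.7 and 94.6 for *Nr1d2*. By CPE rank, mouse 2 was again the lowest and mouse 3 the highest for these genes. For *Dbp* and *Per1* the reference also ranked highest on the array of mouse 3, but it was lowest on that of mouse 1. *Arntl* had CPE ranks of 75.5, 80.2 and 75.5 by the same measure, and its highest sample was mouse 2. After normalization between arrays its ranks were 74.4, 79.3 and 78.9, so that mouse 3 lay close to mouse 2.

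Probes of 1 gene were then compared, over 4 genes with several probes. The 3 probes of *Nr1d1* lay within 3326 bp of each other and had one direction, with mean ratios of 0.85 at the 3′ end, 0.40 at the middle probe (chromosome 11, 98588108 to 98588167) and 0.23 at the 5′ probe (98588628 to 98588687). The difference from the reference was past an adjusted p of 0.05 at the 3′ probe alone. Their order of mice was not shared, since the 5′ probe was highest in mouse 2, at 0.38, and the other probes in mouse 1. Mouse 2 deviated from the probe means by −0.14, −0.39 and 0.15 from the 3′ to the 5′ probe. The middle probe was not well above background in the CPE of mouse 2, where its ratio was 0.017. The 5′ probe was well above background in the reference on 2 arrays, so the shared direction rests in part on signals near the background.

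The 4 probes of *Tef* did not agree. From the 3′ end, the bright probe had a mean ratio of −1.24, the next ones, 2710 and 3066 bp upstream (chromosome 15, 81651043 to 81651102 and 81648641 to 81650746), had 0.31 and 0.11, and the probe 10374 bp upstream (81643379 to 81643438) had −0.96. Only the 3′ probe was well above background in the CPE of all mice. The others were low in rank, at percentiles 48.9, 39.5 and 17.6, and stood well above background in CPE in 2, 1 and 1 of the mice. The probe farthest upstream was designed on a cDNA clone, which had no match in the RefSeq gene table used here. Its ratio therefore compares a measured reference level with CPE signals near the background. The median over the 4 probes was −0.42, so that a single value for *Tef* depends on the choice of probe.

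**Figure D5:**
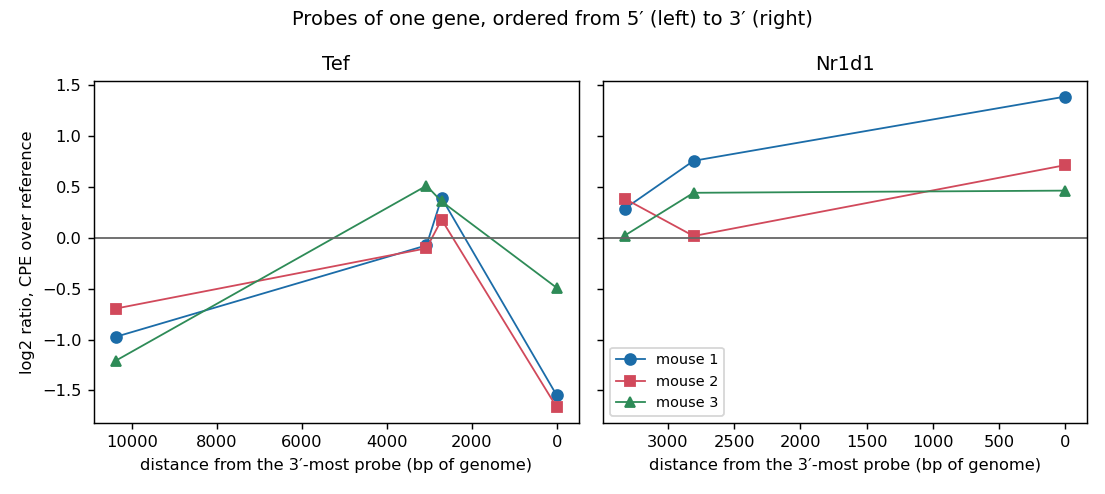
Log2 ratio of CPE over reference for the probes of *Tef* (4) and *Nr1d1* (3) in each mouse, plotted against the distance in bp of genome from the 3′-most probe, with the 5′ side on the left. The *Nr1d1* probes all lie above 0, whereas those of *Tef* lie on both sides of 0.

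*Per2* and *Cry1* had 1 tested probe each. The second *Per2* probe (chromosome 1, 93270367 to 93270426), 23492 bp upstream of the first, had ratios of 0.73, 0.55 and 0.13, opposite in sign to the tested one at −0.75, −0.69 and −0.13 in every mouse. It was well above background in the reference on 1 array and in CPE on 2, and was not tested. The second *Cry1* probe (chromosome 10, 84561785 to 84561844) had ratios of −0.90, 0.18 and −0.23 and was well above background on 2 arrays in each channel. On the side of the brighter *Cry1* probe the ratios were −0.53, −0.71 and −0.15, so the probes shared the sign of the mean but not that of mouse 2.

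The rest of the clock pathway was read from the same fit with the brightest probe of each gene. Of 24 further clock genes all were on the array and 23 were tested. The list gave 6 called genes, 5 lower and 1 higher in CPE, beside 17.3% of all tested probes, and its median ratio was −0.37. The 17.3% is over all tested probes and not over the brightest probe of each gene, so the 2 shares are not alike. In the core loop, 0 of 4 genes were called. *Clock*, the partner of *Arntl*, had ratios of 0.19, 0.18 and −0.14 with a mean of 0.08 (SE 0.16, limma adjusted p 0.739). *Npas2*, which can stand in for *Clock*, had a mean of 0.72 (limma adjusted p 0.0458) and *Cry2* one of −0.77 (SE 0.16, limma adjusted p 0.00793), both inside 2-fold. *Arntl* was thus called lower and its partner was not, and the difference between them was not tested.

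Of 9 genes of the accessory loops 2 were called, both activators that act at RORE sites. *Rorb*, known from the retina, was lower in CPE at −2.70, −2.06 and −2.21, with a mean of −2.32 (SE 0.18, limma adjusted p 8.41e-05), and was well above background in CPE in 1 mouse. *Rora* had ratios of −1.10, −3.15 and −0.90, a mean of −1.72 (SE 0.40, limma adjusted p 0.0121). Without mouse 2, its lowest sample, the ratio was −1.001. The kinase genes *Csnk1e* and *Gsk3b* were lower at −1.28 and −1.41 (limma adjusted p 0.00423 and 0.00266), again with mouse 2 the lowest, at −1.92 and −2.07. Without mouse 2 *Csnk1e* had −0.95 and was not called. Of 3 output genes, *Usp2*, which encodes a ubiquitin protease, was higher in CPE at 1.25, 0.78 and 1.83, with a mean of 1.28 (SE 0.22, limma adjusted p 0.00301), and lay at percentile 97.2. *Wee1* was not well above background in CPE in any mouse and was not tested. With median centring 3 of the further clock genes were called, *Rorb* and *Usp2* among them.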

How the data were processed

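RNA of the CPE of 3 mice was hybridised in Cy5 against 1 RPE and choroid RNA in Cy3 on 2-colour Agilent arrays, each on its own slide. The authors made the scanner tables with Agilent Feature Extraction 9.5.3.1; these deposited tables hold spot and background intensity on a linear scale, and the deposited log ratio is on the log10 scale. The deposited series table holds log2 levels that the authors normalized between arrays with Aquantile in R 2.14.0 with limma.

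Here R 4.3.3 and limma 3.58.1 were used. Ratios followed normexp (offset 50) and loess within arrays, control spots at weight 0 and outlier spots left out. Classes used log2 mean red intensity after Aquantile. Group and mouse number came from the labels. The limma fit had an intercept alone, and its code was tested on simulated data. The number of arrays limits the precision. Named genes were all members, and of 24 other clock genes those called plus *Clock*, *Npas2* and *Cry2*, except 1 called gene that is counted but not reported here. *Wee1*, the 1 gene not tested, was named after its values were seen. Members and lists were chosen with earlier results of these data known. Probe coordinates are on mm8, of which no annotation was used, so exons are not given. No probe sequences are printed. Alternatives covered background, normalization, filter, weights, probe choice and each mouse.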

Additional observations from a re-analysis of the deposited data

How the results depend on the processing

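Of 15 tested clock probes 2 were called, beside 17.3% of all tested probes. With normexp at offset 0 there were 4 (23.4% of all) and with the scanner's log ratio 5 (26.1%); both added *Nr1d1* and the upstream probe of *Tef*, and the latter also *Per3*. Median centring lost both calls and gained 1, the upstream *Tef* probe (21.6%), and limma's treat, which tests against 2-fold and not 0, gave 0 (5.47%). With no background correction, no filter, both channels above background or array weights there were 2 to 3 (10.8 to 20.3%), and without 1 mouse 2 to 5 (15.4 to 19.0%). Signs turned with median centring for *Dbp* (0.18), *Nr1d2* (0.092) and the third *Tef* probe from the 3′ end (−0.077), and without mouse 3 for that probe (−0.089 to 0.22 without 1 mouse) and *Per1* (−0.0056 to 0.59). High clock probes numbered 1 among probes above background in CPE only, which ranks fewer probes, 3 to 4 without 1 mouse and 4 otherwise. The median SD of 0.34 became 0.65 with the scanner's log ratio, chosen after seeing the data, against 0.43 for all probes, and 0.15 to 0.41 without 1 mouse, against 0.18 to 0.26 for all. Genes whose probes had 1 sign numbered 1 of 2, and 2 of 4 with all probes. Of the 6 called further clock genes median centring kept 3, and without 1 mouse 5 to 7 were called, beside the same shares of all probes. Where no construction is named, the cause was not tested. No paired analysis was possible because there was 1 group, with no replicate numbers shared between groups; each ratio is within 1 array.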
